A study of Mus musculus with 6 samples.

Results

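The genes that encode the proteins of the cytosolic ribosome were examined in RNA-seq data from whole mouse testes. Members were taken by gene symbol: names starting with Rpl or Rps and a number, together with Rplp0, Rplp1, Rplp2, Rpsa and Fau, without the S6 kinases, the annotated pseudogene symbols and Rps19bp1. The rule found 88 members among 24411 genes, of which 35 were assigned by symbol to the small subunit and 53 to the large subunit. RefSeq types 87 of the 88 as protein coding. Of these, 3 are testis paralogs (Rpl10l, Rpl39l and Rpl37rt), 7 are other paralogs by name (Rpl3l, Rpl7l1, Rpl22l1, Rpl36al, Rps27l, Rps27rt and Rps4l), and the remaining 78 are called ubiquitous here. The 6 libraries came from C57BL/6 mice, an inbred laboratory strain, and fall into 3 labelled MRP5-/- and MRP9-/- (called labelled DKO) and 3 labelled wildtype (called labelled WT). The mice were matched for age, which the sources used here do not give, nor do they give how either allele was made. MRP5 and MRP9 are ABCC-family membrane transporters, encoded by Abcc5 and Abcc12.

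A ribosome is built from a small subunit, which reads the mRNA, and a large subunit, which joins amino acids, and each subunit carries a single copy of nearly all of its proteins. Several ribosomal protein genes lie on the X chromosome, which is silenced during male meiosis, and autosomal copies of some of them are transcribed in germ cells. Rpl10l is the autosomal copy of the X-linked Rpl10, which helps complete the large subunit, and mice need it for male meiosis. Rpl39l is the autosomal copy of the X-linked Rpl39, whose small protein lines the tunnel through which the new polypeptide leaves, and it serves in spermatids. Ribosomal protein mRNAs are short, abundant and start with a run of pyrimidines, the TOP element, which couples their translation to growth signals.

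The coding sequences are shown first because they decide whether sequenced reads can be assigned to one copy. Coordinates are those of GRCm38 and gene models those of GENCODE. Rpl39l (chr16:10170226-10174911, plus strand, 3 exons) and Rpl39 (chrX:37082520-37085402, minus strand, 3 exons) both have coding regions of 156 bases, which differ at 23 bases (85.3% identity). In the complete coding sequences below, read 5′ to 3′ on the gene's strand, capitals mark the differing bases.
Rpl39: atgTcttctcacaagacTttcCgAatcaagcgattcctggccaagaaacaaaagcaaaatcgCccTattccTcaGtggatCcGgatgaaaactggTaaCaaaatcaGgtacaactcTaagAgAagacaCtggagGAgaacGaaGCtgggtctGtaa
Rpl39l: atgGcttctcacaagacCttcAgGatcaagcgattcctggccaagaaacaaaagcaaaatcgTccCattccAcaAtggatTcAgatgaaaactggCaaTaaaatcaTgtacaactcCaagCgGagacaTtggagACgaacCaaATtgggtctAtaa
The longest run shared by the transcripts of this pair was 38 bases.

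Rpl10l (chr12:66283379-66284401, minus strand) is a gene of 1 exon, whereas Rpl10 (chrX:74270812-74273135, plus strand) has 7. Their coding regions of 645 bases differ at 98 bases (84.8% identity), and the longest shared run is 23 bases. Coding bases 94 to 213, counted from the A of the start codon, show how the 25 differences of that stretch are spread, again in capitals.
Rpl10: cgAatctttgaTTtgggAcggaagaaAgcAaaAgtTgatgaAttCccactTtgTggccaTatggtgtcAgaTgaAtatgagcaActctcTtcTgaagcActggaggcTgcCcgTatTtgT
Rpl10l: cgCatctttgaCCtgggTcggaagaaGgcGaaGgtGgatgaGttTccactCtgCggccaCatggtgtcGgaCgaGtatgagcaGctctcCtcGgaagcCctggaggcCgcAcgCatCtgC
The copies of Rps27 are closer. They are Rps27 (chr3:90212522-90213651, minus strand, 4 exons) and Rps27rt (chr9:114982366-114982739, minus strand, 1 exon), and their coding regions of 255 bases hold no difference (100% identity), while the transcripts share a run of 341 bases.
Rps27 and Rps27rt: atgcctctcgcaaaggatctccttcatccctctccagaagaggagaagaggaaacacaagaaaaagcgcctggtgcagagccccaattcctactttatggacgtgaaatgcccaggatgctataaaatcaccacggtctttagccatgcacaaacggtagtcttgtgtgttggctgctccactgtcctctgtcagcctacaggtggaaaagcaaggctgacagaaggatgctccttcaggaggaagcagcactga
Rpl37rt (chr5:115102923-115110268, minus strand) holds a copy of the 294 coding bases of Rpl37 (chr15:5116645-5119140, plus strand) that differs at 1 base, with a shared run of 256 bases. This gene was matched to GENCODE by symbol and not by the accession in the files, its model there being 682 bases long against 677 in the files, and the identity and type given here rest on that match. RefSeq types Rpl37rt as protein coding and Rps4l as a transcribed pseudogene. GENCODE types Rpl37rt and Rps4l (chr6:148354656-148355598, plus strand) as transcribed processed pseudogenes. Rps4l matched 80.1% of the aligned coding bases of Rps4x (chrX:102184941-102189394, minus strand).

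Depth ranged from 26753721 to 31745969 expected counts in the libraries labelled WT and from 42673615 to 67131103 in those labelled DKO. Abcc12 was lower in the libraries labelled DKO, with 82.1, 82.4 and 72.6 CPM (counts scaled to library size) against 165, 158 and 158 (log2 fold change -1.02, edgeR adjusted p = 0.000307). Abcc5 was not lower but higher there, with 17.0, 16.7 and 16.8 CPM against 10.5, 12.3 and 11.4 (log2 fold change 0.56, adjusted p = 0.0225). The level of Abcc5 transcript thus went against the label. The sources used here do not say which part of either gene was removed, and directions below are between libraries as labelled. The tissue label was met by its markers: 10 genes of elongating spermatids summed to between 108763 and 126893 TPM (transcript abundance per effective length, scaled to a fixed total) in each library. Mean fragment length, as implied by the deposited effective lengths, was 258, 230.4 and 246 bases in the libraries labelled WT and 317, 289 and 275 in those labelled DKO, with no overlap. Because a short transcript yields fewer long fragments, fold changes below come from 2 fits, without and with an offset for the effective length of each gene in each library. TPM, the authors' own unit, is per effective length, whereas CPM is not.

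In the libraries labelled WT the ubiquitous members spanned mean levels from 30.8 TPM (Rpl22) to 3682 TPM (Rps28), with a median of 424 TPM. The 5 members of highest mean TPM were Rps28, Rps29, Rpl32, Rpl41 and Rpl38, and 17 ubiquitous members stood at 1000 TPM or above. The lowest of all members were Rpl3l (0.39 ± 0.13 TPM, SD, n = 3), Rpl37rt (11.6 ± 4.6 TPM), Rpl7l1 (17.7 ± 0.5 TPM), Rpl22 and Rps4x (36.3 ± 11.3 TPM). Rpl3l, whose partner Rpl3 lies near the catalytic centre and which is known from heart and skeletal muscle, had 5 to 13 reads a library and was the member not tested. Over the libraries labelled WT, the coefficient of variation of the ubiquitous members had a median of 4.82% and reached 61.2% at most. These values do not describe the libraries labelled DKO, where Rps28, the highest member, stood at 2132 ± 597 TPM against 3682 ± 78 TPM. The order of the levels tracked transcript length: over the 78 ubiquitous members, Spearman's rho of mean TPM and length was -0.54, a description over genes of the same libraries.

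Of the 87 tested members, 34 were lower and 3 were higher in the libraries labelled DKO without the offset (edgeR quasi-likelihood test, Benjamini-Hochberg over 17110 genes, adjusted p under 0.05). Over all tested genes 5.1% were called lower and 5.75% higher. With the effective-length offset, 20 members were lower, all of them among the 34, and 8 were higher, including the same 3, against 4.12% lower and 5.59% higher of all tested genes. CPM did not overlap between the groups for 48 lower and 10 higher members, against 17.5% and 18.4% of all tested genes. TPM did not overlap for 38 lower and 15 higher members, against 18.2% and 15% of all tested genes. The 3 genes higher in both fits were Rpl35, Rpl9 and Rpl22l1, and those added by the offset were Rps27rt, Rps27l, Rpl24, Rps7 and Rpl23a. These counts rested on single libraries: without DKO replicate 1 or WT replicate 3 no member was called lower, without WT replicate 2 only 1 was, and at unadjusted p under 0.05 there were, in the order of DKO replicate 1, WT replicate 3 and WT replicate 2, 48, 47 and 47 members in either direction, beside 20.9%, 24.8% and 21.8% of all tested genes. In the same 3 fits the calls over all genes fell from 1856 to 11, 7 and 13. With the offset, no member was called lower in any of these 3 fits, where 43, 43 and 48 members, in the same order, had an unadjusted p under 0.05, beside 19.9%, 24.1% and 21.4% of all tested genes. Without the offset, no member was called higher in these 3 fits or without DKO replicate 2. Of all tested genes, 0 were called higher in each of the 3 fits and 170 without DKO replicate 2.

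**Figure D1:**
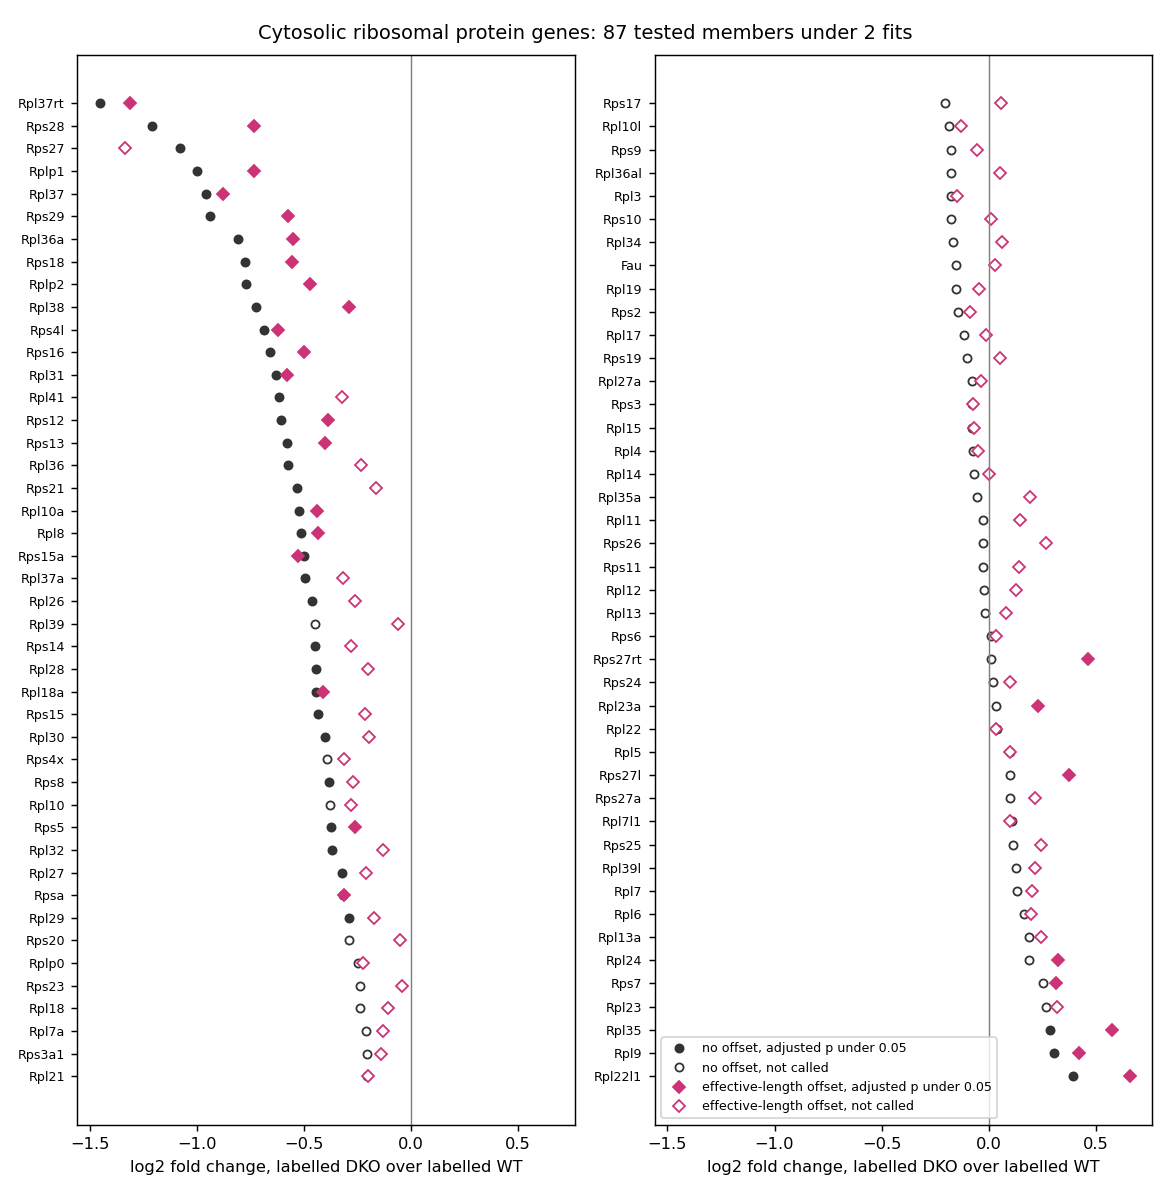
Log2 fold change (x axis, labelled DKO over labelled WT) of the 87 tested members (y axis), ordered by the fit without an offset. Circles are that fit and diamonds the effective-length offset fit, filled where the adjusted p was under 0.05. Of the members, 67 lie below 0 without the offset and 55 with it.

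Among the testis paralogs, Rpl10l and Rpl39l did not pass the test in either fit and Rpl37rt fell in both. Rpl10l stood at 274, 286 and 317 TPM in the libraries labelled DKO and at 332, 323 and 334 TPM in those labelled WT. The groups did not overlap in TPM, DKO being lower, and the fitted log2 fold change was -0.18 ± 0.08 (SE, adjusted p = 0.123), or -0.13 with the offset (adjusted p = 0.253). Rpl39l stood at 354, 357 and 427 TPM against 342, 330.1 and 337 TPM. In that case the libraries labelled DKO were the higher ones, DKO replicate 3 by the widest margin, with a log2 fold change of 0.13 ± 0.08 (adjusted p = 0.326), or 0.22 with the offset (adjusted p = 0.0929). Rpl37rt, the weakest of the tested members, stood at 4.27, 6.65 and 2.85 TPM against 7.14, 16.4 and 11.3 TPM, every library labelled DKO lying below every library labelled WT. Its log2 fold change was -1.45 ± 0.33 (adjusted p = 0.0311), and -1.31 with the offset (adjusted p = 0.0385), on 46 to 155 reads a library. The call was lost with limma on log2(TPM + 1) (adjusted p = 0.0533) and without DKO replicate 1 (0.134), WT replicate 2 (0.111) or WT replicate 3 (0.101). Its GENCODE model shares a run of 256 bases with Rpl37, but neither gene had fractional expected counts, the sign of reads shared between genes. How reads within that run were assigned was not tested. The 3 testis paralogs summed to 676 ± 61 TPM in the libraries labelled DKO and 678 ± 7 TPM in those labelled WT (SD, n = 3 each, exact permutation p = 1), 99.8% of the WT mean.

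The partners of these paralogs differed from one another. Rpl10 stood at 97.1, 100.04 and 105 TPM against 97.65, 163 and 119 TPM, and Rpl39 at 75.0, 56.45 and 77.1 TPM against 56.7, 107 and 61.2 TPM. In both genes WT replicate 2 was the highest of the 6 libraries and the groups overlapped. Neither passed the test, with log2 fold changes of -0.38 (adjusted p = 0.0855) and -0.45 (adjusted p = 0.162) without the offset, and of -0.28 and -0.06 with it. Rpl10 was called with DESeq2 (adjusted p = 0.0289) and without WT replicate 1 (adjusted p = 0.0279). Without WT replicate 2 the log2 fold changes were -0.18 for Rpl10 and -0.10 for Rpl39. Rpl37, a zinc-binding large-subunit protein, fell: it stood at 304, 502 and 296 TPM against 647, 763 and 699 TPM, DKO replicate 2 being the highest of its group and still below every library labelled WT. Its log2 fold change was -0.96 ± 0.18 (adjusted p = 0.0250), and -0.88 with the offset (adjusted p = 0.0288). Rpl37rt and Rpl37 thus fell side by side, and their ratio did not differ beyond the spread (difference of the mean log2 ratio -0.37, exact permutation p = 0.4).

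Within each library Rpl10l made up most of its pair: the ratio of Rpl10l to Rpl10 was 2.83, 2.86 and 3.02 in the libraries labelled DKO and 3.402, 1.98 and 2.80 in those labelled WT. The ratio of Rpl39l to Rpl39 was 4.72, 6.32 and 5.54 against 6.04, 3.09 and 5.50. WT replicate 2 had the lowest ratio in both pairs. The differences of the mean log2 ratios were 0.12 and 0.23 (exact two-sided permutation p = 0.7 and 0.6), and both turned negative without WT replicate 2 (-0.09 and -0.07). With 3 libraries against 3, no p below 0.1 can be reached, so this test could call no pair whatever its ratios. Over the 10 pairs tested, the smallest Benjamini-Hochberg value was 0.4.

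**Figure D2:**
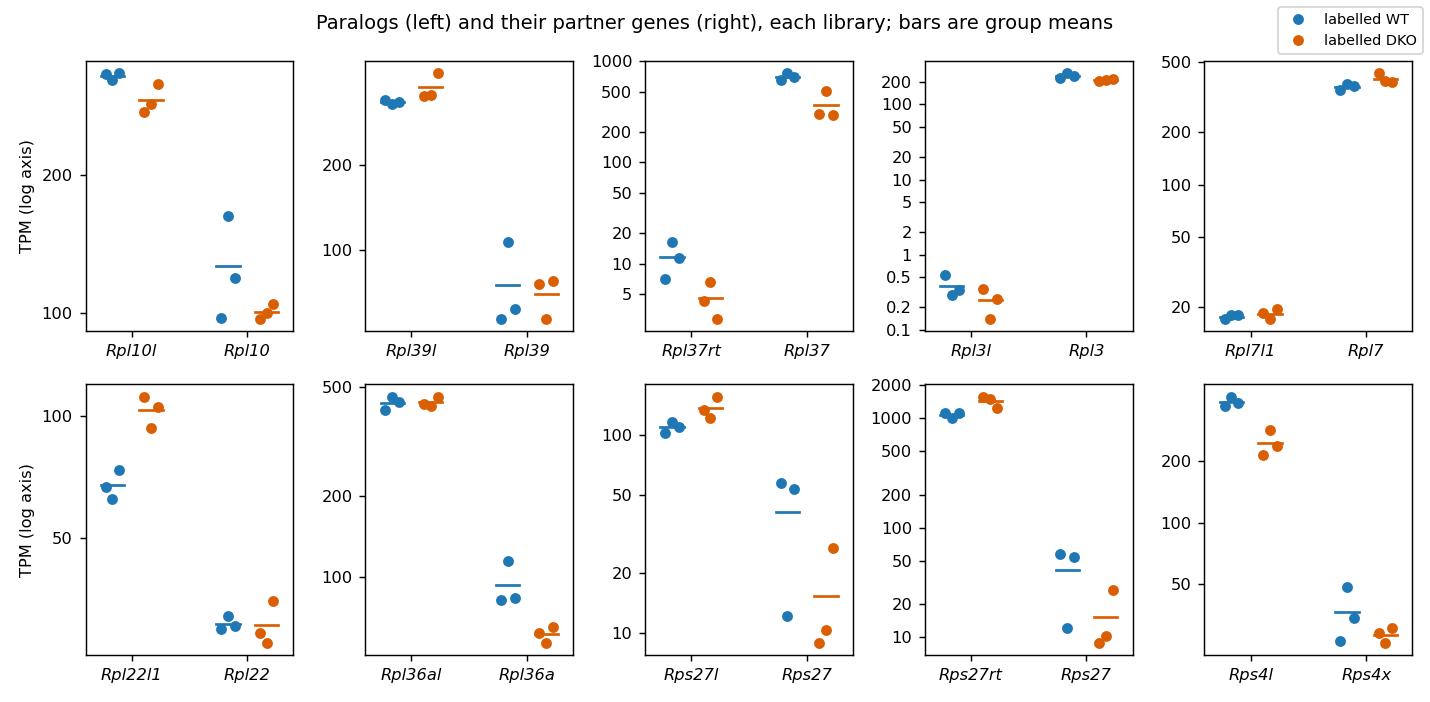
TPM (y axis, log scale) of each paralog (left in a panel) and its partner (right) in each of the 6 libraries, with bars at the group means. Groups separate without overlap for Rpl22l1, Rpl36a, Rpl37 and Rps4l among others, and WT replicate 2 lies high in Rpl10, Rpl39, Rpl36a and Rps4x.

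The 4 X-linked members, Rpl10, Rpl39, Rpl36a and Rps4x, were each exceeded by an autosomal copy in every library. Rps4l, the intronless copy of the small-subunit gene Rps4x, was lower in the libraries labelled DKO, at 214, 285 and 239 TPM against 373, 416 and 388 TPM. The groups were well apart, with a log2 fold change of -0.69 ± 0.11 (adjusted p = 0.0225), and -0.62 with the offset (adjusted p = 0.0267). Rps4x stood at 28.55, 25.75 and 30.3 TPM against 26.3, 48.5 and 33.9 TPM, which overlap, and did not pass the test (log2 fold change -0.39, adjusted p = 0.120). It passed without WT replicate 1 (-0.58, adjusted p = 0.0309), and without WT replicate 2 the value was -0.16. Rpl36a, whose protein contacts the tRNA leaving the ribosome, fell from 82.4, 115 and 84.2 TPM to 62.2, 57.6 and 65.8 TPM. Its log2 fold change was -0.81 ± 0.13 (adjusted p = 0.0225), and -0.55 with the offset (adjusted p = 0.0289). Its autosomal copy Rpl36al stood at 432, 427 and 462 TPM against 413, 462 and 442 TPM, with overlapping groups and no call (adjusted p = 0.152, and 0.620 with the offset). The ratio of Rpl36al to Rpl36a was therefore 7.12 ± 0.25 in the libraries labelled DKO and 4.75 ± 0.66 in those labelled WT (SD, n = 3 each), without overlap (exact permutation p = 0.1, the smallest possible, Benjamini-Hochberg value 0.4).

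Summed over the 4 X-linked members, the libraries labelled DKO held 263, 239.9 and 278 TPM and those labelled WT 263, 433 and 299 TPM (exact permutation p = 0.2). WT replicate 2 alone stands apart, and without it the log2 ratio of the means moved from -0.35 to -0.11. Their autosomal copies summed to 1275, 1355 and 1444 TPM against 1461, 1531 and 1500.4 TPM (exact permutation p = 0.1). WT replicate 2 also had the highest sums of the Leydig, Sertoli, macrophage, and peritubular and endothelial cell markers. No gene of these lists was at 0 in all libraries. The 10 Leydig cell markers summed to 3804 TPM in WT replicate 2, against 1803 and 2370.2 TPM in the other libraries labelled WT and 1426, 1811 and 1095 TPM in those labelled DKO. The 10 Sertoli cell markers summed to 2484 TPM there, against 1955 and 2111 TPM, and 1542, 1588 and 1840.0 TPM in those labelled DKO. Of these lists, 4 Leydig genes (Star, Hsd3b6, Fabp3 and Insl3) and 3 Sertoli genes (Defb19, Rhox5 and Cldn11) were called lower in the libraries labelled DKO without the offset, with no gene higher and list medians of -0.49 and -0.20 on the log2 scale. With the offset Insl3 was no longer called (adjusted p = 0.0517). The 8 markers of peritubular and endothelial cells summed to between 69.0 and 81.25 TPM in the libraries labelled DKO and between 81.9 and 117 TPM in those labelled WT, with 1 gene (Tagln) lower without the offset and 2 with it. The 10 spermatocyte markers went the other way, from 1344 to 1509.6 TPM against 1230.5 to 1326 TPM, with 2 genes (Sycp3 and Hormad1) higher without the offset and 1 with it. The 6 blood markers, 2 of them at 0 in all libraries, had their highest sum in DKO replicate 2, at 44.8 TPM against 24.6 TPM in WT replicate 2. The part of all these cells in the levels of the members was not tested. In whole tissue, fewer cells of a type and less RNA per cell cannot be told apart.

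**Figure D3:**
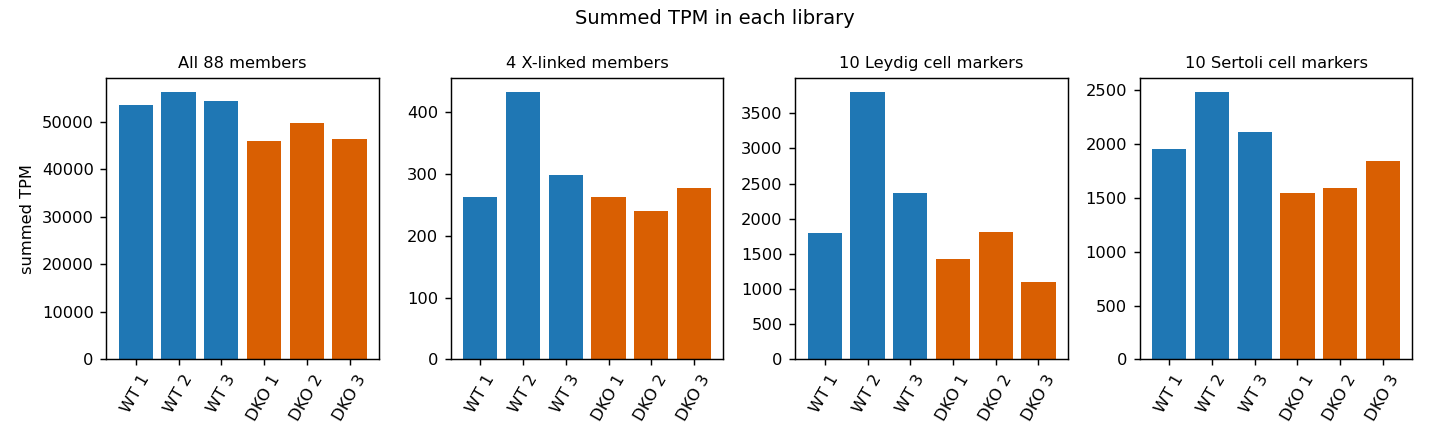
Summed TPM (y axis, from 0, a separate scale in each panel) of all 88 members, of the 4 X-linked members and of 10 Leydig and 10 Sertoli cell markers in each library (x axis, blue labelled WT, orange labelled DKO). WT replicate 2 is the highest library in all 4 panels, and for the 88 members every library labelled DKO, at most 49649.7 TPM, lies below every library labelled WT, at least 53547 TPM.

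Rpl22l1, the copy of Rpl22, rose. It stood at 112, 93.8 and 106 TPM against 66.8, 62.4 and 73.8 TPM, well clear of one another, with a log2 fold change of 0.39 ± 0.09 (adjusted p = 0.0340) and 0.66 with the offset (adjusted p = 0.0267). The call without the offset was lost without DKO replicate 1 (adjusted p = 0.125) or DKO replicate 2 (0.0665). It was also lost without WT replicate 2 (0.129) or WT replicate 3 (0.0993). Rpl22, known to repress Rpl22l1, stood at 29.1, 27.65 and 34.9 TPM against 29.8, 32.1 and 30.45 TPM, with overlapping groups (adjusted p = 0.784). The ratio of Rpl22l1 to Rpl22 was 3.42 ± 0.41 against 2.20 ± 0.24 (SD, n = 3 each), without overlap (exact permutation p = 0.1, Benjamini-Hochberg value 0.4). Rpl7l1 ranged from 17.1 to 19.5 TPM over all 6 libraries and did not pass the test (adjusted p = 0.326), and its partner Rpl7 stood at 431, 386 and 383 TPM against 344, 373 and 362 TPM without a call.

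The copies of Rps27, a zinc-binding small-subunit gene, have to be read together. Rps27rt, the intronless copy, held almost all of the signal, at 1570.3, 1506 and 1236 TPM against 1103, 1008 and 1112 TPM, whereas Rps27 was listed at 8.90, 10.3 and 26.7 TPM against 57.1, 12.1 and 53.4 TPM. The groups of Rps27 overlap, since WT replicate 2 lies among the libraries labelled DKO. Both genes had fractional expected counts, the sign of reads shared between genes, so the division between them is uncertain, and the Rps27 call without the offset (log2 fold change -1.08, adjusted p = 0.0377) was lost with it (-1.34, adjusted p = 0.114). The effective length of Rps27 varied within each group, at 264, 292 and 155 bases in the libraries labelled DKO and 148, 347 and 164 in those labelled WT. The TPM of Rps27 and its fold change with the offset depend on these lengths. Summed over both genes, CPM was 84.8, 103.8 and 74.2 against 91.3, 83.3 and 93.8, with overlapping groups (exact permutation p = 0.9), while the summed TPM, 1579, 1517 and 1263 against 1161, 1019.7 and 1166, did not overlap (exact permutation p = 0.1). Rps27rt is 345 bases long, and its effective length was 74.1, 92.9 and 86.0 bases in the libraries labelled DKO and 111, 127 and 119 bases in those labelled WT. Fractional counts were also found for Rpl26, Rpl30, Rpl31, Rpl34, Rpl5, Rps23 and Rps25, 9 members in all. Their values are uncertain to an extent that was not tested. Rps27l, which differs from Rps27 at 60 of 253 aligned coding bases, stood at 135, 122 and 157 TPM against 102, 116 and 110.2 TPM. It was called higher with the offset (log2 fold change 0.38, adjusted p = 0.0376) and not without it (0.10, adjusted p = 0.554).

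In the small subunit, 15 of 35 members were lower and none higher without the offset (23, or 65.7%, with an unadjusted p under 0.05 in either direction, beside 31.7% of all tested genes), and 10 were lower and 3 higher with it. Rps28 had the largest decrease of the subunit without the offset. It stood at 2068, 2759 and 1569.9 TPM against 3651, 3770.4 and 3625 TPM, a mean of 57.9% of the WT level. DKO replicate 2 was the highest of its group, and no library labelled DKO reached a library labelled WT. Its log2 fold change was -1.21 ± 0.21 (adjusted p = 0.0231), and -0.73 ± 0.17 with the offset (adjusted p = 0.0351), and without DKO replicate 2 it was -1.59. Rps29, whose human counterpart is mutated in some patients with Diamond-Blackfan anaemia, stood at 1904, 2536 and 1704 TPM against 3122, 3238 and 3127 TPM. Its groups lay apart too, with log2 fold changes of -0.94 and -0.57 in the 2 fits (adjusted p = 0.0231 and 0.0360). Rps18, a protein of the head of the subunit, Rps16, whose tail reaches the tRNA in the peptidyl site, and Rps12 fell by 0.77, 0.66 and 0.61 without the offset and by 0.56, 0.50 and 0.39 with it on the log2 scale. Rps15a fell by 0.50 and 0.53, close in both fits, its listed transcript being 5134 bases long. Rps7, another gene of Diamond-Blackfan anaemia, went the other way, at 589, 532 and 554 TPM against 469.7, 438 and 480.0 TPM, with an adjusted p of 0.0514 without the offset and 0.0387 with it.

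In the large subunit, 19 of 52 tested members were lower and 3 higher without the offset, and 10 were lower and 5 higher with it. Without the offset, 35 members (67.3%) had an unadjusted p under 0.05 in either direction, beside 31.7% of all tested genes. The stalk proteins Rplp1 and Rplp2, which recruit translation factors to the ribosome, fell in both fits. Rplp1 stood at 503, 756 and 470.1 TPM against 982, 984 and 1019.6 TPM, and Rplp2 at 986, 1188 and 1030.1 TPM against 1430.3, 1666 and 1501 TPM. DKO replicate 2 was again the highest of its group in both genes, below every library labelled WT. Rplp1 stood at 57.9% and Rplp2 at 69.7% of the WT mean in TPM, with adjusted p = 0.0233 and 0.0225 without the offset. With it, the log2 fold changes were -0.74 ± 0.16 and -0.47 ± 0.09 (adjusted p = 0.0320 and 0.0277). Rplp0, on which both are mounted, stood at 1243, 1546 and 1415 TPM against 1624, 1753 and 1707 TPM, apart in every library but not called in either fit (log2 fold change -0.25 and -0.23).

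Rpl38, whose loss in mice disturbs the axial skeleton, stood at 1298, 1435 and 1294 TPM against 1659, 1786 and 1649 TPM. Its log2 fold change shrank from -0.72 to -0.29 with the offset and remained called (adjusted p = 0.0225 and 0.0431), and its transcript of 354 bases is among the shortest. Rpl31, at the exit of the peptide tunnel, and Rpl8, near the catalytic centre, fell by 0.63 and 0.51 without the offset and by 0.58 and 0.44 with it on the log2 scale. Rpl41 and Rpl32 were called without the offset (log2 fold change -0.61 and -0.37) and not with it (adjusted p = 0.0548 and 0.274).

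The higher members were large-subunit genes without the offset. Rpl35, which lies at the tunnel exit, stood at 1135, 943 and 1153 TPM against 786, 730.1 and 713 TPM, the groups lying well apart. Its log2 fold change was 0.28 ± 0.08 (adjusted p = 0.0402), and 0.58 ± 0.09 with the offset (adjusted p = 0.0233). Rpl9 stood at 295, 246 and 264 TPM against 208, 199 and 212 TPM, also without overlap, with log2 fold changes of 0.31 and 0.42 (adjusted p = 0.0340 and 0.0279). Of those added by the offset, Rpl23a, which docks the signal recognition particle, had log2 fold changes of 0.04 and 0.23 (adjusted p = 0.749 and 0.0490). Rpl24, which bridges the subunits, had 0.19 and 0.32 (adjusted p = 0.0882 and 0.0377).

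The size of the shift followed transcript length, and less so with the offset. The ubiquitous members had a median length of 693.5 bases, against 2623 bases over all tested genes. Their median log2 fold change was -0.22 without the offset and -0.12 with it, beside medians of -0.004 and -0.002 over all tested genes. For the 16 ubiquitous members under 500 bases the median was -0.59 without the offset and -0.26 with it, beside -0.31 and -0.01 for the 211 tested genes of that length. For the 45 members from 500 to under 1000 bases it was -0.21 and -0.09, beside -0.12 and -0.02. For the 17 of 1000 bases or more it was -0.08 and -0.07, beside 0.01 and -0.001, and in that class 4 members (23.5%) were called lower in each fit, beside 3.86% and 3.71% of all tested genes of that length. Under 500 bases 11 members (68.8%) were called lower without the offset and 6 (37.5%) with it, beside 31.3% and 8.53% of all tested genes of that length. In the middle class 17 (37.8%) and 8 (17.8%) were, beside 13.6% and 7.53%. Over the 78 ubiquitous members, which share libraries and depth, Spearman's rho of log2 fold change and length was 0.43 without the offset and 0.16 with it. The effective length of Rps28 was 62.7, 79.9 and 72.2 bases in the libraries labelled DKO and 96.8, 111 and 103 bases in those labelled WT, and the part of fragment length in the remaining differences was not tested.

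**Figure D4:**
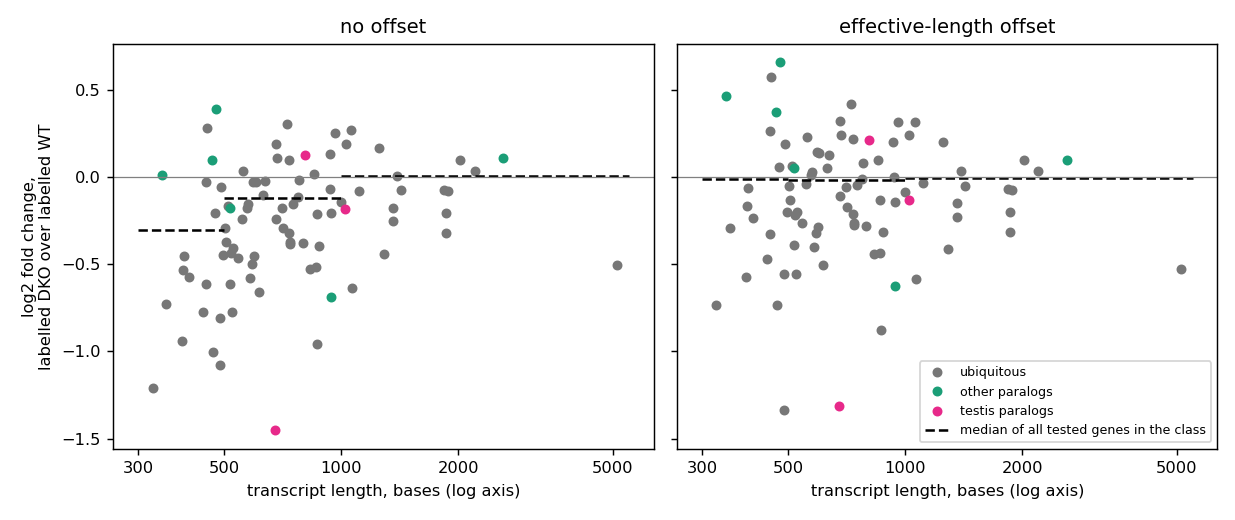
Log2 fold change (y axis, labelled DKO over labelled WT) against transcript length in bases (x axis, log scale) for the 87 tested members, without (left) and with (right) the effective-length offset. Dashed lines are medians of all tested genes under 500, from 500 to under 1000 and from 1000 bases, and below 500 bases that line moves from -0.31 to -0.01 while the ubiquitous members of that class have medians of -0.59 and -0.26.

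Together the 88 members made up 45901, 49649.7 and 46458 TPM in the libraries labelled DKO and 53547, 56313 and 54330.4 TPM in those labelled WT. The groups did not overlap, and the mean of the libraries labelled DKO was 86.5% of the WT mean (log2 ratio -0.21, exact permutation p = 0.1, the smallest possible). Without the 5 members of highest mean TPM over both groups (Rps28, Rps29, Rpl32, Rpl41 and Rpl13) it was 90.3%. The small-subunit sum was 83.8% and the large-subunit sum 88.9% of the WT mean. The ratio of small to large subunit TPM was 0.837, 0.863 and 0.797 against 0.891, 0.875 and 0.886, without overlap (exact permutation p = 0.1). The 7 other paralogs summed to 113% of the WT mean in TPM and to 82.4% in CPM. Rps27rt, the most abundant of them, stood at 134% of its WT mean in TPM.

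Other genes of protein synthesis were counted from fixed lists. Beside them, 5.1% of all tested genes were called lower and 5.75% higher without the offset, and 4.12% and 5.59% with it. Of 65 tested ribosome assembly factors, 7 were lower and 2 higher without the offset, and 6 and 2 with it, with a median log2 fold change of 0.04 in both. The lower ones included Fbl, which methylates ribosomal RNA (34.3 against 48.9 CPM, log2 fold change -0.51), and Nop10 (-0.48) and Gar1 (-0.41) of the complex that makes pseudouridine. Of 49 tested translation factors, 3 were lower and 8 higher in both fits, with medians of 0.12 and 0.13. Eif3e, a subunit of an initiation complex, rose (140 against 97.8 CPM, log2 fold change 0.51), and Eif3i (-0.38) of the same complex and Gnb2l1 (-0.39), the scaffold protein bound to the small subunit, fell. Of 77 mitochondrial ribosomal protein genes, with a median length of 1043 bases, 14 were lower and 3 higher without the offset and 9 and 8 with it, with medians of -0.04 and 0.02. Mrps24 (-1.17), Mrps12 (-0.52), Mrps34 (-0.49) and Mrpl43 (-0.51) were among the lower ones in both fits.

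Start regions were compared because the TOP element lies there. RefSeq windows from 250 bases before to 50 after the start were given for 67 of the 88 members. CTTTC on the gene strand within 10 bases of the start, searched as part of a pyrimidine run, was found in 12 of the 67 (17.9%), against 2.58% of 27025 windows of all genes, and on both strands in 19.4% against 4.81%. These members were Fau, Rpl15, Rpl18, Rpl28, Rpl35, Rpl38, Rpl39l, Rpl7a, Rplp2, Rps10, Rps27 and Rps27rt, which include genes lower, higher and not called. The 50 bases below run from 40 before the start, 5′ to 3′ on the gene's strand in GRCm38.p6, with CTTTC in capitals, and set the higher Rpl35 beside the testis paralogs Rpl10l and Rpl39l (Rpl37rt is not shown) at chr2:39005122-39005171 (minus strand), chr12:66284392-66284441 (minus strand) and chr16:10170188-10170237 (plus strand).
Rpl35: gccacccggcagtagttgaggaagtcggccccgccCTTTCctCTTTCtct
Rpl10l: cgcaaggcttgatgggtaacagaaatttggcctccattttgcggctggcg
Rpl39l: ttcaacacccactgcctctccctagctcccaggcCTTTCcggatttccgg
No CTTTC was found in the window of Rpl10l. Over the whole window on both strands, TGACGTCA was found in 8.96% of the members against 1.88% of all windows, its core TGACG in 47.8% against 21.0%, GGAAG in 91.0% against 71.1%, CCAAT in 31.3% against 37.9% and TATAAA in 8.96% against 14.2%. TGACGTCA contains TGACG, and a match describes letters, not a bound factor.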

How the data were processed

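RNA-seq of whole testes gave 1 gene table a library. Per the file headers, the authors deposited expected counts and TPM for each gene, with length and effective length; the submitters' processing notes name STAR 2.7.0f, RSEM 1.2.31, DESeq2 1.12.3 and mm10, without roles. Strand was not given in the sources used here. Groups came from the genotype label, replicate numbers follow deposition order, and nothing says more of how animals were sampled, so p-values measure the spread between these 6 libraries.

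Expected counts were rounded and tested with edgeR 4.0.16 (TMM scaling, filterByExpr, quasi-likelihood test, Benjamini-Hochberg over all tested genes), with and without an effective-length offset, after a check on simulated data. The simulated counts held no difference of fragment length, and the offset was run on them with a constant effective length. That check therefore could not test the correction for length. CPM was computed from the counts with TMM scaling. Alternatives used DESeq2 1.42.0, its size factors, no filter, a length-trend offset and limma 3.58.1 on log2(TPM + 1) and log2(TPM + 0.1). Sums and ratios were compared by exact two-sided permutation tests. Named genes were, by rule, the paralogs with their partners, X-linked members, the 8 called members of smallest p in each direction and fit, the 5 highest and 5 lowest in the WT libraries, up to 4 called genes of each other list, and Abcc5 and Abcc12. Rplp0, Rplp1 and the members listed with fractional counts or a start motif were named after their values were seen. Members and lists were chosen with earlier results of these data known. Protein sequences were not used here.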

Additional observations from a re-analysis of the deposited data

How the results depend on the processing

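The 34 members lower and 3 higher without an offset became 20 and 8 with the effective-length offset. They were 26 and 7 with the length-trend offset, 41 and 5 with DESeq2, and 25 and 5 with limma on log2(TPM + 0.1). Over all tested genes, 774 were lower and 994 higher of 17110 with the length-trend offset. With DESeq2 1298 and 1645 of 17109 were, and with limma on log2(TPM + 0.1) 577 and 370 of 17110. Leaving out 1 library gave from 0 to 36 lower and from 0 to 3 higher members, and from 0 to 24 lower with the offset, an alternative chosen after seeing the data. The median of the ubiquitous members (-0.22) was -0.12 with either offset. Leaving out 1 library moved the log2 ratio difference of Rpl10l to Rpl10 from -0.089 to 0.30 and of Rpl39l to Rpl39 from -0.071 to 0.41, both turning without WT replicate 2. Of members not called without an offset, Rpl36al (-0.17) changed sign with the effective-length offset (0.051), the length-trend offset (0.013) and limma on log2(TPM + 1) and log2(TPM + 0.1) (0.0053 in both), and Rpl22 (0.04) with limma (-0.016 and -0.017, in that order). Over fits leaving out 1 library, Rpl22 ranged from -0.041 to 0.072, Rps27l from -0.015 to 0.16 and Rps27rt from -0.14 to 0.13. The cause was not tested. No paired analysis was possible because the labels give no number shared between groups. With 3 libraries a group, the exact tests cannot go below 0.1, and the short effective lengths of the shortest members limit their TPM.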
